A study of Mus musculus with 12 samples.

Results

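The chronic phase after repetitive mild traumatic brain injury (rmTBI) was read from the 3 arrays of 42 days post-injury (DPI) and the 3 sham arrays, 6 of the 12 arrays of the series. All mouse miRNAs on these arrays were members, 1881 in all, and 486 of them were detected on every array of at least 1 group of the series and were tested. The animals were adult male C57BL/6 mice. The injured mice took 4 closed-head impacts at intervals of 48 h and were killed 42 days later, and the sham mice went through the same handling without an impact; the labels do not say when the sham mice were killed. Vesicles were prepared from digested brain, the cortex and hippocampus of both sides in the methods and a hemisphere in the labels, and captured with an antibody against CD11b, a surface protein of microglia and other myeloid cells, and their RNA was labeled with 1 dye and hybridized. The labels do not say whether the 3 arrays of a group came from separate mice or pools, so the p-values measure the spread between arrays, which may in part be technical. Fewer vesicles and less RNA per vesicle cannot be told apart on such arrays.

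miRNAs are short RNAs that guide the silencing complex to messenger RNAs, mainly through the seed, bases 2 to 8 from the 5′ end. Exosomes are small vesicles that cells release and that carry miRNAs between cells, and in brain those of microglia are studied as a route from immune cells to neurons. Many miRNAs come in families that share a seed or in clusters cut from a single transcript, so their members tend to be read together.

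Relative to the brightness of the array, members of the miR-30 family, the miR-23 and miR-27 clusters and miR-219a stood higher at 42 DPI, and the epithelial miR-200 family, relatives of the Sfmbt2 cluster and many miRNAs with high numbers stood lower. The sequences below are those of the largest changes and of the seed groups that moved together. They are RefSeq entries of build GRCm38.p6, which held 418 of the 486 tested miRNAs, and the seed is in capitals. The 4 tested miRNAs with the seed GUAAACA in a RefSeq entry, of the miR-30 family and miR-384, were higher. miR-30b-5p and miR-30d-5p of the same family had no entry matched here, and of these miR-30b-5p was higher and miR-30d-5p did not pass the test.
miR-30a-5p: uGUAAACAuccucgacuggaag
miR-30c-5p: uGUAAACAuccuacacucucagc
miR-30e-5p: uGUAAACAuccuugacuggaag
miR-384-5p: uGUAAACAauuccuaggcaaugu
The miR-27 pair shares the seed UCACAGU, and both members were higher.
miR-27a-3p: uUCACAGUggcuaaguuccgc
miR-27b-3p: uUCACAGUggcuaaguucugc
The miR-200 family has 2 seeds that differ in a single base, AAUACUG and AACACUG, and all 5 members tested were lower.
miR-200b-3p: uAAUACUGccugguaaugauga
miR-200c-3p: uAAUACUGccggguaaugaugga
miR-429-3p: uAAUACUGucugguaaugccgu
miR-200a-3p: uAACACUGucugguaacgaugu
miR-141-3p: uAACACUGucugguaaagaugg
The other large rises with a RefSeq sequence came from unrelated seeds.
miR-136-5p: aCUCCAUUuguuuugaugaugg
miR-376a-3p: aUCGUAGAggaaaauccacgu
miR-98-5p: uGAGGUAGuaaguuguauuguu
miR-219a-5p: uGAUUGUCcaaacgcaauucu
miR-204-5p: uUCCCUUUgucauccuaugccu
miR-6366: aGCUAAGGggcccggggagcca
The other large falls are shown next, with repeats of C and A in miR-467f and miR-466q.
miR-6385: gCAAGGAUgacagagaggaag
miR-7686-5p: cCUUCCACuggaccuggggcugggc
miR-6769b-5p: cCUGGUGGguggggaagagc
miR-7687-5p: aGGCGGGGaaccugaggcgcaggcu
miR-467f: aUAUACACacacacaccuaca
miR-466q: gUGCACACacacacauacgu
miR-183-5p: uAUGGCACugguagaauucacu

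The 2 groups differed in brightness before any comparison. A miRNA's signal was the sum over its probes of the scanner's background-corrected intensity, divided by the array's 75th percentile over the 230 miRNAs that all 12 arrays detected and given as log2, so that 0 is that percentile and a difference of 1 is 2-fold. This percentile lay between 217 and 348 intensity units on the sham arrays and between 1385 and 2936 at 42 DPI, 3.98 to 13.5 times as bright. On the sham arrays 243 to 285 miRNAs were well above background, and at 42 DPI 490 to 579. The lowest detected level was -4.64 to -3.66 on the sham arrays and -7.77 to -6.39 at 42 DPI, and every value under -5.06 was set to that floor. Slide 1 held the 3 sham arrays with 1 array of 3 DPI, and slide 2 held all arrays of 42 DPI, so slide and group cannot be told apart. Every rise and fall given here is relative to the 75th percentile. Arrays of a group were alike, with a median SD over the miRNAs detected on all 6 arrays of 0.31 in sham and 0.11 at 42 DPI, and 204 of these 234 miRNAs spread more in sham.

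Of the 486 miRNAs tested, limma with Benjamini-Hochberg adjustment called 166 changed at an adjusted p under 0.05, 34.2% of those tested. Higher at 42 DPI were 66 (13.6%) and lower were 100 (20.6%), and the median log2 change of all 486 was -0.09. A total of 25 rose and 90 fell by more than 2-fold. For 66.9% of the miRNAs tested, the groups did not overlap. Detection sets no bound on the 234 miRNAs detected on all 6 arrays, where 33 were higher (14.1%) and 63 lower (26.9%), 41.0% of them. Another 165 were below background on every sham array and detected on every array of 42 DPI, where the dim sham arrays limit what a comparison can show. Of these, 21 were called higher and 28 lower, but their sham level has only an upper bound. Calls of a fall among them set detected readings at 42 DPI against sham readings below background. None of the 486 was detected on a sham array and on no array of 42 DPI. With the floor raised to the highest detection limit of the 12 arrays, -3.66, limma called 68 miRNAs, 35 higher and 33 lower. Leaving out 1 array moved the count from 166 to 54 without sham replicate 1, 63 without sham replicate 2, 143 without sham replicate 3, 46 without 42 DPI replicate 1, 98 without replicate 2 and 81 without replicate 3. With slide as a block, where 1 array of 3 DPI links the slides, limma called 0, and 104 had an unadjusted p under 0.05 against 231 without the block.

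**Figure D1:**
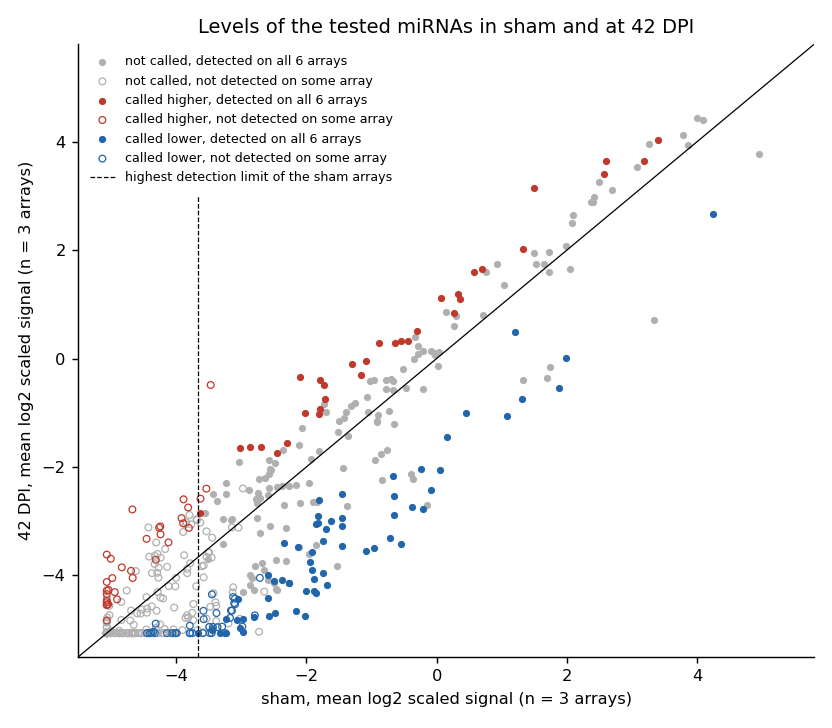
Mean log2 scaled signal at 42 DPI (y axis) against sham (x axis) for the tested miRNAs without miR-124-3p, 3 arrays per group; red and blue mark the 66 called higher and the 100 called lower, open circles mark miRNAs not detected on some of the 6 arrays. The diagonal marks equal levels and the dashed line the detection limit of -3.66; the row of points at the bottom lies at the floor of -5.06 at 42 DPI.

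The 8 largest rises and 8 largest falls were taken among miRNAs called, detected on all 6 arrays and without overlap between the groups. The separation of these miRNAs was thus set by the choice. The rises were led by miR-136-5p, a member of the imprinted Dlk1-Dio3 cluster on chromosome 12 (109595331-109595352). It read -2.69, -2.06 and -1.56 on the sham arrays and -0.31, -0.48 and -0.24 at 42 DPI. The change was 1.76 ± 0.40 (SE) on the log2 scale, 3.40-fold, with 95% interval 0.85 to 2.68 and limma adjusted p = 0.0141. Its cluster neighbor miR-376a-3p read -2.07, -1.72 and -1.40 in sham and -0.50, -0.58 and -0.40 at 42 DPI. It rose by 1.24 ± 0.27 (adjusted p = 0.013, limma). The third largest rise was that of miR-30b-5p, a member of the widely expressed miR-30 family. It read -2.08, -1.72 and -1.59 in sham against -0.34, -0.41 and -0.41 at 42 DPI, with little spread at 42 DPI, and it rose by 1.41 ± 0.21 (adjusted p = 0.00573, limma).

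Both arms of the miR-219a hairpins were among the 8. These miRNAs rise as oligodendrocytes mature and form myelin. miR-219a-5p read -1.48, -1.34 and -1.08 in sham and -0.25, -0.15 and 0.10 at 42 DPI, a rise of 1.20 ± 0.29 (adjusted p = 0.0164, limma). miR-219a-2-3p read -2.89, -3.02 and -2.70 in sham and -1.58, -1.66 and -1.69 at 42 DPI, a rise of 1.23 ± 0.23 (adjusted p = 0.00996, limma). In both, the gap between the groups was wider than the spread within either, but with normexp background correction the change of miR-219a-2-3p turned to -0.090, where the median of all tested was -0.81. miR-204-5p, abundant in choroid plexus and pigment epithelium, went from -1.20, -0.72 and -0.71 to 0.36, 0.32 and 0.17. miR-98-5p, of the let-7 seed, went from -3.20, -3.06 and -2.80 to -1.40, -1.84 and -1.69. Their rises were 1.17 ± 0.24 (adjusted p = 0.0113, limma) and 1.38 ± 0.32 (adjusted p = 0.0152, limma), although with normexp miR-98-5p turned to -0.048. miR-6366, with 72.7% G and C, was the only 1 of the 8 with a number over 3000. It was already bright in sham, at 0.82, 1.61 and 2.05, and read 2.93, 3.49 and 3.01 at 42 DPI (1.65 ± 0.48, adjusted p = 0.0311, limma). The smallest of the 8 rises was 1.17 and the next in order was 1.07.

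Of the miRNAs lower at 42 DPI, miR-6385 fell most, from 0.54, -0.80 and -1.39 on the sham arrays to -3.24, -3.45 and -3.58 at 42 DPI. The change of -2.87 ± 0.59 was 7.32-fold (95% interval -4.20 to -1.54, adjusted p = 0.0112, limma), although the sham arrays spread with an SD of 0.99. miR-200c-3p followed, from -1.97, -1.32 and -2.77 to -4.60, -4.62 and -4.99, a change of -2.72 ± 0.50 or 6.58-fold (adjusted p = 0.00959, limma). miR-183-5p, of a cluster known from sensory organs, went from -1.77, -1.19 and -2.59 to -4.31, -4.14 and -4.54, with a change of -2.48 ± 0.56 (adjusted p = 0.0141, limma). For both miRNAs sham replicate 3 was the lowest of its group, and the 3 arrays of 42 DPI still lay more than 1 below it on the log2 scale.

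Among the falls, 3 had 70.0% or more G and C. miR-7686-5p read -0.59, -0.64 and -0.93 in sham and -3.53, -3.07 and -3.31 at 42 DPI, a change of -2.59 ± 0.58 (adjusted p = 0.0141, limma). miR-6769b-5p read 0.35, -0.34 and -0.65 in sham and -2.96, -2.59 and -2.79 at 42 DPI (-2.57 ± 0.50, adjusted p = 0.0103, limma). miR-7687-5p was dimmer and read -1.59, -2.23 and -2.68 in sham and -4.94, -4.47 and -4.55 at 42 DPI (-2.49 ± 0.59, adjusted p = 0.0157, limma). Group ranges were separate for all 3, which the choice of the 8 falls required. miR-467f and miR-466q, which resemble the Sfmbt2 cluster, completed the list with changes of -2.53 ± 0.53 (adjusted p = 0.012, limma) and -2.50 ± 0.54 (adjusted p = 0.0133, limma). The smallest of the 8 falls was -2.48 and the next in order was -2.46.

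**Figure D2:**
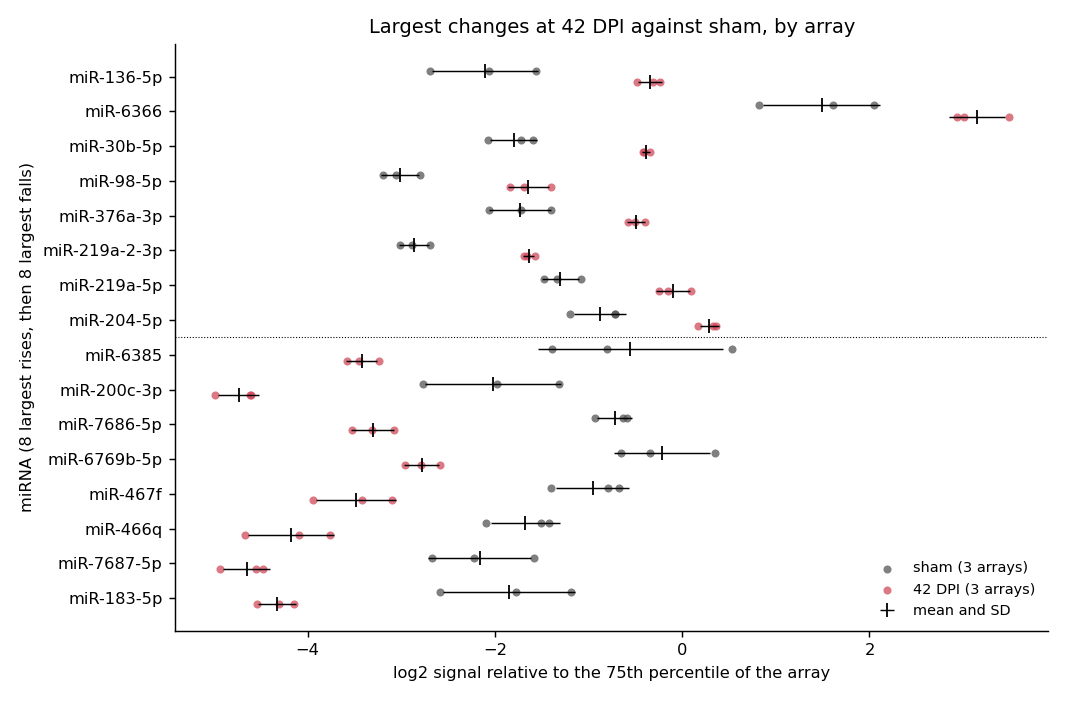
Log2 signal relative to the array's 75th percentile (x axis) of the 8 largest rises and 8 largest falls among miRNAs called and detected on all 6 arrays; points are arrays (grey sham, red 42 DPI), bars the mean and SD of 3 arrays. In each row the 3 red points lie on 1 side of the 3 grey points, which the choice of these miRNAs required. The sham points of miR-6385 are the most spread.

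The calls of these 16 miRNAs depended on single arrays to different degrees. Without sham replicate 1, the adjusted p values in limma were 0.0539 for miR-136-5p, 0.118 for miR-6366, 0.0595 for miR-98-5p, 0.0522 for miR-376a-3p and 0.0657 for miR-219a-5p. The same omission gave 0.0528 for miR-7686-5p, 0.051 for miR-466q, 0.0632 for miR-7687-5p and 0.0528 for miR-183-5p. Without 42 DPI replicate 1, the same miRNAs other than miR-376a-3p, and miR-467f, had adjusted p values between 0.0517 and 0.0714. Without sham replicate 2, miR-6366, miR-98-5p, miR-219a-5p, miR-7686-5p, miR-7687-5p and miR-183-5p lay between 0.0501 and 0.0708. miR-6366 was also lost without 42 DPI replicate 2 (0.0878), and with miR-219a-5p without replicate 3 (0.0721 and 0.0604). miR-30b-5p, miR-219a-2-3p, miR-204-5p, miR-6385, miR-200c-3p and miR-6769b-5p passed in each of the 6 omissions. With the raised floor, all 8 rises and 7 of the 8 falls kept an adjusted p under 0.05 among the 381 miRNAs not at that floor on every array. The exception was miR-7687-5p, at 0.0737.

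Among miRNAs below background on every sham array, the bound gave a rise of at least 2.44-fold for miR-329-3p, at least 2.09-fold for miR-135a-5p, at least 1.83-fold for miR-143-3p, at least 1.75-fold for miR-380-3p and at least 1.65-fold for miR-148a-3p. The bound sets the mean of the 3 arrays of 42 DPI against the higher of each sham array's detection limit and its own reading. miR-329-3p and miR-380-3p belong to the Dlk1-Dio3 cluster, miR-143-3p is abundant in smooth muscle, and miR-135a-5p did not pass the test (adjusted p = 0.0504, limma). Of the 165 miRNAs with this pattern of detection, 14 had a bound over 1 and 2 had a bound over 2-fold. miR-329-3p read -5.06, -4.63 and -4.32 in sham and -2.43, -3.06 and -2.85 at 42 DPI, and its injury arrays were above the sham detection limits. With normexp the changes of all 5 turned to a fall that passed the test, from -0.67 for miR-329-3p to -0.85 for miR-380-3p, where the median of all tested was -0.81. The calls of miR-143-3p and miR-380-3p were lost in each of the 6 omissions of 1 array (adjusted p 0.0541 to 0.130 and 0.0718 to 0.161, limma), that of miR-148a-3p in 4 of the 6 (up to 0.0879), and that of miR-329-3p in none (up to 0.0464).

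The miR-30 family had 4 of 10 tested members called higher and 2 lower, against 13.6% and 20.6% of all miRNAs tested. Its median log2 change was 0.61 against -0.09 over all miRNAs tested. With normexp background correction the list's median turned to -0.47, against -0.81 over all. The 4 that rose were the 5p arms of miR-30a, miR-30b, miR-30c and miR-30e, while miR-30d-5p read -0.92 ± 0.23 (SD, n = 3) in sham and -1.17 ± 0.25 (SD, n = 3) at 42 DPI and did not pass. The brightest member, miR-30a-5p, went from 1.04, 1.42 and 1.53 to 2.05, 2.02 and 2.01 (0.70 ± 0.22, adjusted p = 0.0427, limma), a call lost without 5 of the 6 arrays in turn, with adjusted p up to 0.156. miR-30c-5p rose by 1.01 ± 0.21 and miR-30e-5p by 0.93 ± 0.25. The 2 members called lower, miR-30c-1-3p and miR-30c-2-3p, are passenger arms at or near the floor and below background on at least 2 sham arrays.

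The miR-23, miR-27 and miR-24 clusters encode 3 seeds from paired loci on chromosomes 8 and 13. Of their 6 tested members 4 were higher and 0 lower, against 13.6% and 20.6% of all miRNAs tested, with a median of 0.83. miR-23a-3p went from -1.34, -0.98 and -0.93 to 0.07, -0.07 and -0.11 (1.04 ± 0.23, adjusted p = 0.0137, limma). miR-27a-3p went from -1.50, -1.06 and -0.91 to -0.32, -0.28 and -0.31 (0.85 ± 0.20, adjusted p = 0.0152, limma), and miR-27b-3p rose by 1.02 ± 0.23. miR-24-3p, cut from the same transcripts and the brightest of the group, read 1.27, 1.65 and 1.65 in sham and 1.82, 1.73 and 1.68 at 42 DPI, and did not pass (0.22 ± 0.22, adjusted p = 0.477, limma).

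The Dlk1-Dio3 cluster, an imprinted locus whose miRNAs are made from the maternal chromosome and are abundant in neurons, had 111 members on the array and 49 tested. Of these, 16 were higher and 1 was lower, with a median of 0.57, against 13.6% higher and 20.6% lower over all miRNAs tested. All arrays of 42 DPI lay above all sham arrays for 38 of the 49, against 152 of all 486. Of the 49, 10 were below background on every sham array. Of the 27 detected on all 6 arrays, 5 were higher and 1 lower, a share of higher calls near the 14.1% of all miRNAs detected on all 6, and the other higher calls were of members not detected on some of the 6 arrays. With normexp the list's median turned to -0.80, against -0.81 over all miRNAs tested, with 7 members higher and 36 lower. miR-127-3p, which is antisense to the imprinted gene Rtl1, read -0.01, 0.15 and 0.08 in sham and 1.12, 1.08 and 1.14 at 42 DPI (1.04 ± 0.21, adjusted p = 0.0111, limma). miR-434-3p, from the same stretch, rose by 0.85 ± 0.19 (adjusted p = 0.0141, limma). The exception was miR-433-3p, which fell from -2.19, -1.46 and -1.80 to -3.18, -2.61 and -2.95 (-1.09 ± 0.23, adjusted p = 0.0121, limma). miR-494-3p, the brightest member by its mean over the 6 arrays, read 5.52, 5.10 and 4.24 in sham and 3.36, 4.27 and 3.69 at 42 DPI. Its groups overlapped and it did not pass (-1.18 ± 0.62, adjusted p = 0.159, limma).

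The let-7 family and miR-98, which restrain growth and are abundant in adult brain, had 2 of 13 tested members higher and 2 lower. These counts are near the shares over all miRNAs tested, 13.6% higher and 20.6% lower. let-7f-5p rose by 0.84 ± 0.28 (adjusted p = 0.0486, limma), but let-7a-5p (0.70 ± 0.28, adjusted p = 0.0742), let-7c-5p (0.31 ± 0.27, adjusted p = 0.393) and let-7b-5p (0.08 ± 0.27, adjusted p = 0.875) did not pass in limma. The 2 lower members, let-7f-1-3p and let-7b-3p, are passenger arms that were below background on every sham array. let-7c-5p, let-7b-5p, miR-29a-3p, miR-3963 and miR-494-3p were the 5 brightest miRNAs by their mean over the 6 arrays, miR-124-3p left aside, and none of the 5 passed. miR-29a-3p, which targets collagens, gave 0.34 ± 0.21 (adjusted p = 0.219, limma) and miR-3963 0.45 ± 0.21 (adjusted p = 0.123, limma).

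Several families showed no call or 1, where 13.6% of all miRNAs tested were higher and 20.6% lower. The 8 tested members of miR-15, miR-16, miR-103 and miR-107 had a median of 0.09 and 0 calls, the 9 of the clusters that hold miR-17 and miR-92a 0.09 and 0 calls, the 5 of the miR-34 family 0.21 and 0 calls, the 2 of miR-26 0.49 and 0 calls, and the 2 of miR-221 and miR-222 0.78 and 0 calls. Their brightest members in limma were miR-103-3p (0.24, 95% interval -0.36 to 0.84), miR-19b-3p (0.16, -0.55 to 0.87), miR-34a-5p (0.46, -0.15 to 1.07), miR-26a-5p (0.43, -0.06 to 0.91) and miR-221-3p (0.89, 0.18 to 1.6, adjusted p = 0.0548). In the miR-181 family 1 of 5 was higher, and its brightest member miR-181a-5p gave 0.33 (-0.31 to 0.97). In the miR-29 family 1 of 5 was higher. The miR-99/100 and miR-125 group had 1 higher and 1 lower of 7. miR-125a-5p and miR-125b-5p share the seed CCCUGAG. miR-125b-5p rose by 0.46 ± 0.15 (adjusted p = 0.0446, limma). That call was kept without sham replicate 3 (adjusted p = 0.046, limma) and lost with any other array left out, up to 0.16 without sham replicate 1. miR-125a-5p fell from 0.94, 1.40 and 1.28 to 0.40, 0.50 and 0.55 (-0.73 ± 0.14, adjusted p = 0.00996, limma). CCCUGAG was the single seed whose called members went in opposite directions, of 10 seeds with at least 2 called miRNAs that have a RefSeq sequence. The 3 members of the miR-148 and miR-152 family were called higher but were below background on every sham array.

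The miR-200 family, which keeps epithelial cells in their state, had all 5 tested members lower, against 20.6% of all miRNAs tested, with a median of -1.99, and all 5 were detected on all 6 arrays. The count of 5 lower went to 1 with the 75th percentile over all miRNAs, 2 with quantile normalization, 3 with the scanner software's total signal and 0 without scaling or with slide as a block. miR-429-3p, the brightest, read -0.52, -0.10 and -1.36 in sham and -2.78, -2.92 and -2.95 at 42 DPI (-2.22 ± 0.49, 4.67-fold, adjusted p = 0.0136, limma). miR-200b-3p went from -1.28, -0.87 and -2.22 to -3.31, -3.48 and -3.57, and miR-200a-3p from -1.78, -1.37 and -2.57 to -3.53, -3.49 and -3.67. Their changes were -1.99 ± 0.52 (adjusted p = 0.0208, limma) and -1.66 ± 0.54 (adjusted p = 0.0458, limma). miR-141-3p sat at the floor throughout 42 DPI, so that its change of -1.40 ± 0.39 depends on the floor, and with the raised floor its adjusted p was 0.186. On sham replicate 3 each of the 5 was lower than on the other sham arrays. miR-429-3p had an adjusted p of 0.0522 without sham replicate 1 and 0.0515 without sham replicate 2.

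The miRNAs related to the Sfmbt2 cluster, a rodent expansion inside an intron of that gene, had 9 of 13 tested members lower and 1 higher. Their median was -1.96, and over all miRNAs tested 20.6% were lower and 13.6% higher. RefSeq places some relatives elsewhere, as with miR-467f on chromosome 11 and miR-466q on chromosome 3. miR-669p-3p read -0.22, -0.17 and -0.74 in sham and -3.20, -2.33 and -2.66 at 42 DPI (-2.35 ± 0.53, adjusted p = 0.0141, limma). miR-466h-3p went from -0.93, -0.86 and -1.47 to -4.02, -3.10 and -3.51 (-2.46 ± 0.53, adjusted p = 0.013, limma), and miR-466i-5p changed by -1.80 ± 0.41. On each of the 3, replicate 1 was the lowest array of 42 DPI. miRNAs of this group are near-identical, so which of them was read is uncertain. The member called higher, miR-467a-3p (0.64 ± 0.19, adjusted p = 0.0335, limma), exchanged names with miR-124-3p at 2 spots between the sham and the injury arrays, so no change is drawn from it.

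A block of late-numbered miRNAs of the kind thought to be spliced from short introns, called mirtron-like here, had 12 of 42 tested 5p arms lower and 0 higher, with a median of -1.24, and 8 of 11 3p arms lower and 0 higher, with a median of -1.27. Over all miRNAs tested, 20.6% were lower. Of the arms detected on all 6 arrays, 9 of 21 and 2 of 2 were lower, against 26.9% of all such miRNAs. With the floor at -3.66 and all 486 fitted, 2 of the 42 and 2 of the 11 were lower. Among the 381 miRNAs not at that floor on every array, 7 of the 5p arms and 2 of the 3p arms were lower. With normexp the medians were -1.02 for the 5p arms and -0.86 for the 3p arms, near the -0.81 of all miRNAs tested. Without scaling 28 of the 42 and 4 of the 11 were higher and 0 lower. Their medians on that scale were 1.27 and 0.69, against 1.90 over all. miR-7022-3p went from -2.84, -2.48 and -3.10 to -5.06, -4.42 and -4.80 (-1.96 ± 0.27, adjusted p = 0.00481, limma). The brightest 5p arm, miR-7042-5p, read 2.84, 1.37 and 0.88 in sham and -0.43, 0.02 and -0.68 at 42 DPI, without overlap and with a wide spread in sham, and did not pass (-2.06 ± 0.72, adjusted p = 0.0538, limma).

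**Figure D3:**
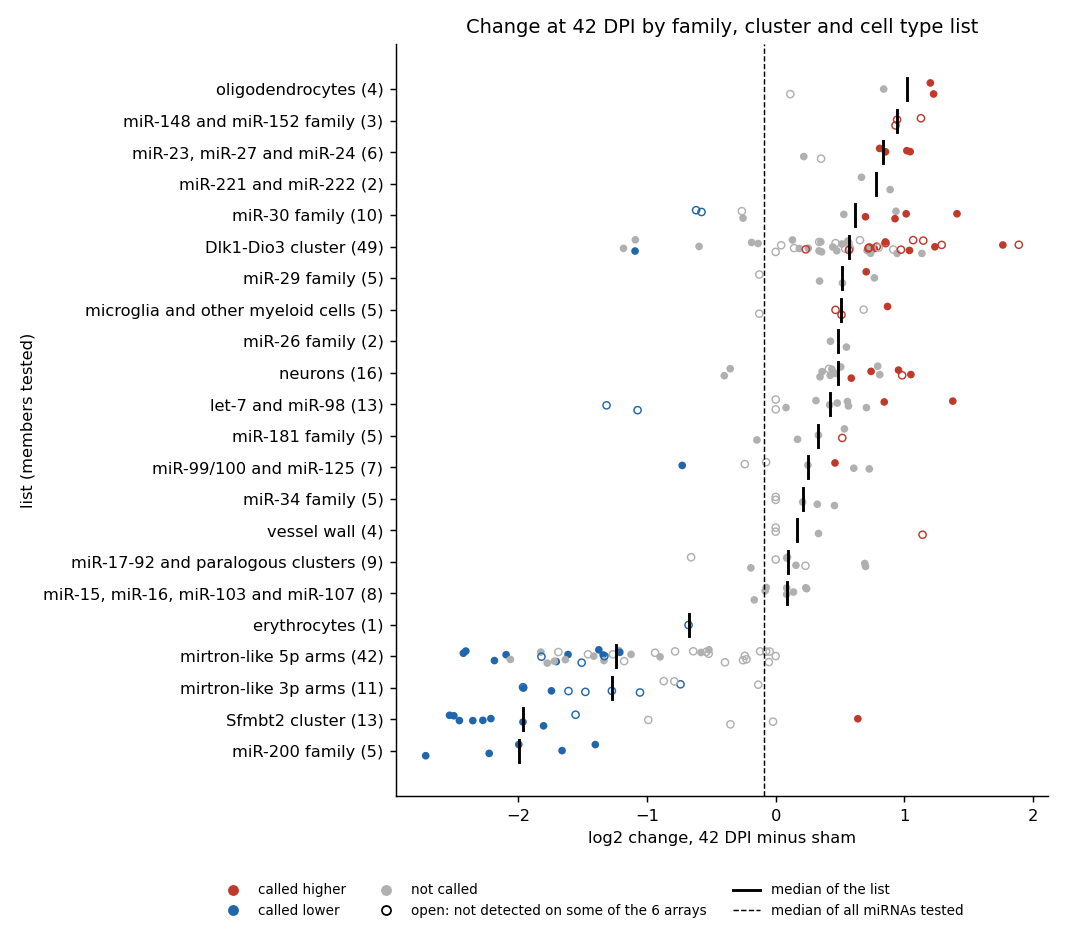
Log2 change at 42 DPI against sham (x axis) of each tested member of the family, cluster and cell type lists (rows, with the number tested); red and blue are called higher and lower, open circles were not detected on some of the 6 arrays, black bars are list medians and the dashed line is the median of all tested miRNAs, -0.09. The miR-200 and Sfmbt2 rows sit on the left, with medians of -1.99 and -1.96, and the oligodendrocyte row furthest right, with 1.02.

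The capture antibody is directed at myeloid cells. Of 5 myeloid miRNAs tested, 3 were higher and 0 lower, against 13.6% and 20.6% of all miRNAs tested. The 3 were miR-142a-3p, miR-146a-5p and miR-21a-5p, and the median of the 5 was 0.51. With normexp the median turned to -0.73, with 1 higher and 4 lower, and with the floor at -3.66 limma called 0 of the 5. miR-142a-3p was below background on every sham array and read -4.54, -4.28 and -4.50 at 42 DPI (0.46 ± 0.16, adjusted p = 0.0498, limma), so its sham level has only an upper bound. miR-146a-5p was also below background on every sham array (0.51 ± 0.14, adjusted p = 0.0255, limma), and neither has a bound over 1. miR-223-3p was detected on 1 sham array and read -3.93, -3.57 and -3.99 in sham and -4.05, -3.77 and -4.05 at 42 DPI. miR-223-3p did not pass (-0.13 ± 0.13, adjusted p = 0.493, limma). Of the 9 myeloid miRNAs 1 was detected on all 6 arrays, miR-21a-5p, which is induced in many cell types by injury. It read -0.91, -0.42 and -0.31 in sham and 0.42, 0.28 and 0.25 at 42 DPI (0.86 ± 0.29, adjusted p = 0.0493, limma), and its adjusted p rose above 0.05 in each of the 6 omissions, up to 0.177. The sum of the myeloid list on the linear scale, with the 75th percentile as 1, ran from 0.714 to 0.987 in sham and from 1.42 to 1.59 at 42 DPI. The brightest tested member was miR-21a-5p, with means of -0.55 in sham and 0.32 at 42 DPI, and the sum mainly follows it.

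Of the 17 neuronal miRNAs 14 were detected on all 6 arrays, and the sum of the 17 ran from 23.97 to 32.88 in sham and from 40.5 to 45.9 at 42 DPI. Of 16 tested, 5 were higher and 0 lower, against 13.6% and 20.6% of all miRNAs tested, with a median of 0.49. Of the 14 detected on all 6 arrays, 4 were higher and 0 lower, against 14.1% and 26.9% of all such miRNAs. The neuronal marker miR-128-3p went from 2.50, 2.51 and 2.78 to 3.83, 3.42 and 3.68 (1.05 ± 0.28, adjusted p = 0.0217, limma). miR-218-5p, abundant in motor neurons, rose by 0.95 ± 0.27 (adjusted p = 0.0286, limma) and miR-137-3p, which acts in synaptic genes, by 0.59 ± 0.14 (adjusted p = 0.0152, limma). miR-9-5p, of neural progenitors and neurons, was above sham on all arrays without passing (0.81 ± 0.29, adjusted p = 0.0605, limma), and the other arm miR-9-3p gave 0.46 ± 0.28 (adjusted p = 0.214, limma). The activity-regulated miR-132-3p read 1.52, 2.40 and 2.24 in sham and 1.83, 1.47 and 1.67 at 42 DPI, with overlap (-0.40 ± 0.43, adjusted p = 0.501, limma).

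Of the 4 oligodendrocyte miRNAs 2 were higher, both arms of miR-219a, against 13.6% of all miRNAs tested. The sum of all 4 members ran from 1.81 to 2.51 in sham and from 4.15 to 4.46 at 42 DPI. miR-338-3p, the brightest of the 4, read 0.39, 0.97 and 0.91 in sham and 1.70, 1.54 and 1.55 at 42 DPI. It did not pass (0.84 ± 0.32, adjusted p = 0.0728, limma), and the sum of the 4 mainly follows it. The vessel wall list had 1 of 4 tested members higher, and its sum ran from 1.05 to 1.50 in sham and from 1.51 to 1.76 at 42 DPI. The endothelial miR-126a-3p did not pass (0.33 ± 0.23, adjusted p = 0.29, limma). miR-145a-5p, of smooth muscle, was detected on 0 sham arrays and 3 arrays of 42 DPI, but its values lay at the floor on all 6 arrays. Of the erythrocyte markers miR-144-3p was at the floor and below background on all 6 arrays. miR-451a was detected on 0 sham arrays and 2 arrays of 42 DPI. miR-486a-5p was called lower, but it was below background on every sham array and has no bound over 1. The neuronal and oligodendrocyte sums move with the rises listed above, and their part in those results was not tested.

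The changes went with how a miRNA is numbered and composed. Numbers are given in order of discovery, and of 155 tested miRNAs numbered 3000 or over, 3 were higher and 52 lower, with a median of -1.09. Of 331 with lower numbers, 63 were higher and 48 lower, with a median of 0.10. The 3 risers with high numbers were miR-6366, miR-3968 and miR-6412, named here after their values were seen. miR-3968 was detected on 2 sham arrays and changed by 2.98, and miR-6412 was below background on every sham array. Among the 234 miRNAs detected on all 6 arrays, the median share of G and C was 45.5% in the 33 called higher, 62.5% in the 63 called lower and 50.0% in the 138 not called, for the 28, 54 and 123 with a RefSeq sequence. Some of the falls had a low share, as with 40.9% in miR-429-3p and miR-183-5p and 38.1% in miR-467f. The brightness of the arrays and the slide differ between the groups, and their part in this pattern was not tested.

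**Figure D4:**
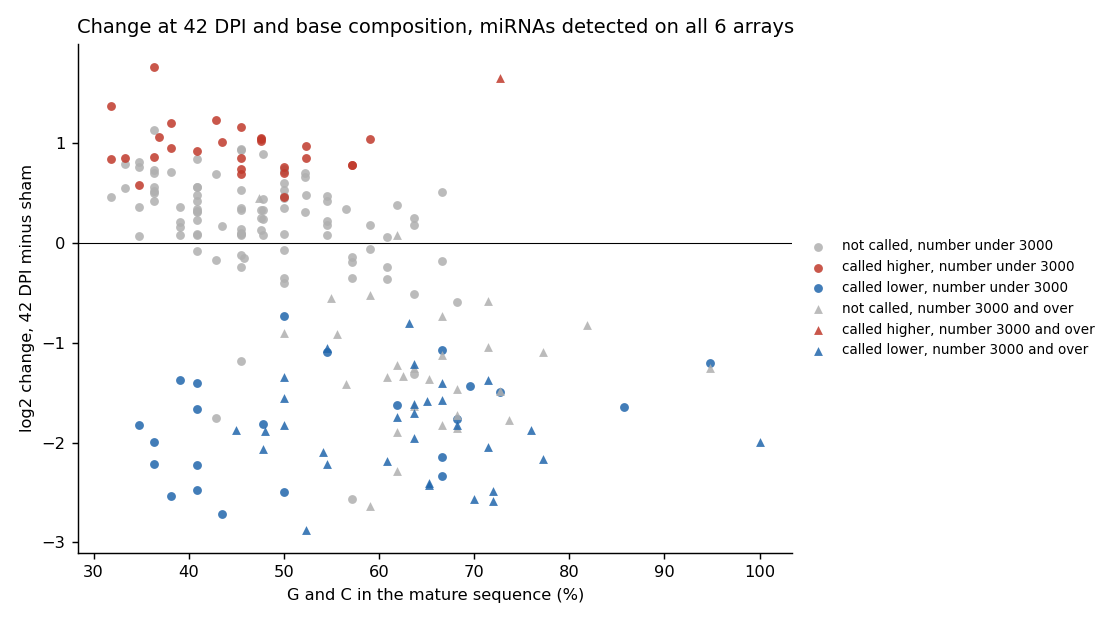
Log2 change at 42 DPI against sham (y axis) and share of G and C in the mature sequence (x axis, %) for the miRNAs detected on all 6 arrays that have a RefSeq sequence; triangles have numbers of 3000 and over, red and blue are called higher and lower. Median shares were 45.5% for the called rises and 62.5% for the called falls, and the red triangle is miR-6366.

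Both arms were tested for 58 hairpins. In 6 of them both arms were called, where 34.2% of all miRNAs tested were called, so the count of 6 is not read as a result about arms. The arms went the same way in all 6: higher for miR-136, miR-140 and miR-154 and lower for miR-466i, miR-574 and miR-7687.

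The scaling sets the zero of all these values. Without it the median log2 change of all miRNAs tested was 1.90, and 408 were called, all higher. On that scale the 8 largest falls lay between -0.05 and 0.34, and relative to the median of all miRNAs between -1.95 and -1.56, so that 7 of the 8 turned to a small rise in raw brightness. The 8 largest rises lay between 3.98 and 4.58, and relative to that median between 2.08 and 2.68, so which side holds the larger changes depends on the zero. Relative to the median of all tested, the miR-200 family was at -1.08, the Sfmbt2 list at -1.35 and the oligodendrocyte list at 1.94. The split of the 166 calls, 39.8% of them higher, moved to 68.2% of 223 with the 75th percentile over all miRNAs, 60.5% of 195 with quantile normalization, 57.4% of 249 in the deposited table and 10.2% of 433 with normexp. Medians of all tested under these 4 were 0.46, 0.14, 0.44 and -0.81. Relative to those medians, the miR-200 family lay between -2.33 and -0.54, the Sfmbt2 list between -2.31 and -0.63 and the oligodendrocyte list between 1.06 and 1.33.

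Slide 2 also held 2 arrays of 3 DPI and the arrays of 14 DPI. No miRNA was called between 42 DPI and 14 DPI in limma, and 54 had an unadjusted p under 0.05. The groups of 42 DPI and 3 DPI differed for 186 of 486 miRNAs (38.3%), miR-124-3p included, of which 69 were higher and 117 lower at 42 DPI. Within slide 2, where 3 DPI has 2 arrays, limma called 0, and 201 had an unadjusted p under 0.05. On these arrays of slide 2, 3 DPI replicates 2 and 3, miR-30b-5p read -1.16 and -1.63 and miR-200c-3p -1.69 and -3.04, and their differences from 42 DPI within the slide were 1.01 and -2.37. miR-6385 differed by -3.07 and miR-7022-3p by -1.71 within slide 2. These 4 miRNAs were all called at 42 DPI against sham, and within slide 2 their adjusted p values in limma ran from 0.0552 to 0.0643. At 14 DPI, also on slide 2, replicate 1 read -0.57 for miR-7686-5p and -1.09 for miR-30b-5p, while replicates 2 and 3 read -2.62 and -2.83, and -0.44 and -0.41. The 75th percentile before scaling was 401 to 619 at 3 DPI, 588 on replicate 1 of 14 DPI and 1116 to 1173 on its other arrays. Brightness before scaling moved with these levels, and its part in them was not tested.

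**Figure D5:**
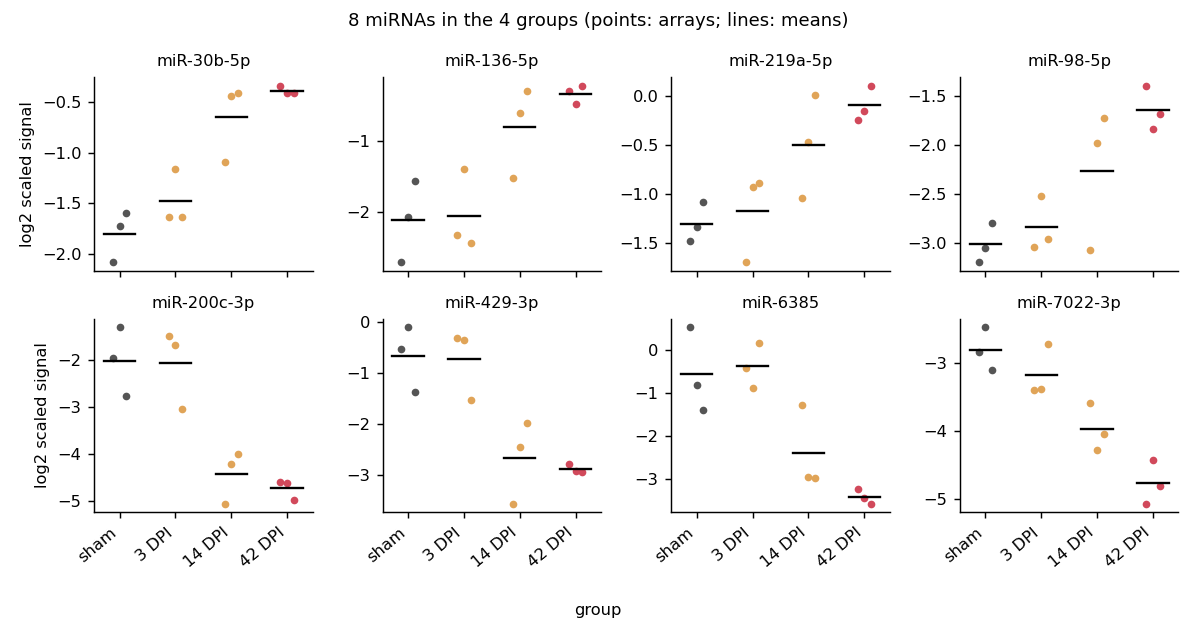
Log2 scaled signal (y axis) of 8 miRNAs in the 4 groups (x axis); points are the 3 arrays of a group and lines their means. In each panel the 3 arrays of 42 DPI lie apart from the 3 sham arrays, which the choice of most of these miRNAs required. For miR-30b-5p the arrays of 14 DPI run from -1.09 to -0.41.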

How the data were processed

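The authors deposited 1 scanner file per array, made with Agilent Feature Extraction 10.7.1.1 and holding a background-corrected intensity per spot on a linear scale, and a table of log2 values whose scaling is not given in the sources used here. The labels describe a cRNA labeling kit and the methods a cyanine 3 end label. After removal of control and outlier spots, spots were averaged by probe and probes summed by miRNA, and every array was scaled to its 75th percentile among 230 miRNAs that all 12 arrays detected. A miRNA was detected where more than 0.5 of the kept spots of a probe were well above background. A common floor of -5.06, the median over arrays of the 1st percentile of detected signals, was applied before log2. All 12 arrays were fitted with limma 3.58.1 in R 4.3.3, without covariates, as a contrast of 42 DPI with sham, Benjamini-Hochberg adjusted over 486 miRNAs and tested on simulated data. Replicate numbers did not pair the arrays (correlations of deviations -0.42, -0.07 and 0.27). Members, lists and tests were chosen with earlier results of these data known; lists came from general knowledge. Named are the 8 largest rises and falls among called, separated miRNAs detected on all 6 arrays, the 5 largest bounds, the brightest member of each list and the 5 brightest miRNAs; other members named in lists or seed groups were chosen after their values were seen. Spots carry the names of the injury arrays. The 30 miR-124-3p spots of each 42 DPI file lie off that array's grid, and no change of that miRNA is reported. Python 3.11.15, NumPy 2.4.6, pandas 2.3.3 and Matplotlib 3.10.9 were used. Alternatives covered signal, background, scaling, floor, filter, detection, samples, blocks for replicate number and for slide, single arrays left out, the deposited table and the methods' t-test; the raised floor and the restriction to slide 2 were chosen after seeing the data.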

Additional observations from a re-analysis of the deposited data

Results flagged for a closer look

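The step from 3 to 42 DPI differed for 186 of the 486 miRNAs in limma, miR-124-3p included, which is not reported. Within slide 2, with 2 arrays of 3 DPI, limma called 0, and 201 had an unadjusted p under 0.05. Log2 differences, 42 DPI minus 3 DPI, are given for each named miRNA that passed over all arrays. Among the large rises they were 1.70 for miR-136-5p, 2.19 for miR-6366, 1.09 for miR-30b-5p, 1.20 for miR-98-5p, 1.35 for miR-376a-3p, 1.24 for miR-219a-2-3p and 1.07 for miR-219a-5p. Among the large falls they were -3.05 for miR-6385, -2.66 for miR-200c-3p, -1.89 for miR-7686-5p, -2.04 for miR-6769b-5p, -2.12 for miR-467f, -2.11 for miR-466q, -2.24 for miR-7687-5p and -2.31 for miR-183-5p. Of the miRNAs below background in sham, they were 1.65 for miR-329-3p, 1.11 for miR-143-3p, 0.86 for miR-380-3p, 1.14 for miR-148a-3p and -0.87 for miR-486a-5p. The remaining differences were 0.87 for miR-21a-5p, 0.85 for miR-30a-5p, 0.67 for miR-3963, -2.15 for miR-429-3p, -2.64 for miR-7042-5p, -1.59 for miR-7022-3p and 0.69 for miR-467a-3p, whose spot names are in doubt. Both comparisons use the arrays of 42 DPI.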

How the results depend on the processing

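Against 166 calls (66 higher, 100 lower), limma called 433 with normexp (389 lower), 408 without scaling (408 higher, 0 lower), 87 with the floor doubled (38 and 49), 18 without a filter (2 and 16), 262 on the 6 arrays alone (118 higher) and 0 with slide as a block (0 higher, 0 lower). Higher calls numbered 152 with the percentile over all miRNAs, 118 with quantile normalization, 143 in the deposited table and 38 among miRNAs detected on all 6 arrays. The methods' t-test gave 270 before adjustment at p under 0.05, 153 at p under 0.01 and 212 after Benjamini-Hochberg. With 2 alternatives chosen after seeing the data, the raised floor gave 68 (35 and 33), or 91 without miRNAs at it on every array (44 lower), and slide 2 alone gave 0 calls between 42 and 3 DPI. Leaving out 1 array gave 46 to 143 calls, 11 to 46 higher and 34 to 97 lower. Replicate numbers did not pair the arrays, and a block for the replicate number gave 141 calls, 55 higher and 86 lower.

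Signs turned without scaling for miR-200c-3p (0.10), miR-7686-5p (0.23), miR-6769b-5p (0.25), miR-467f (0.29), miR-466q (0.32), miR-7687-5p (0.33), miR-183-5p (0.34), miR-486a-5p (1.64), miR-429-3p (0.59), miR-494-3p (1.64), miR-7042-5p (0.76) and miR-7022-3p (0.69), where the median of all was 1.90. With normexp they turned for miR-98-5p (-0.048), miR-219a-2-3p (-0.090), miR-329-3p (-0.67), miR-135a-5p (-0.79), miR-143-3p (-0.81), miR-380-3p (-0.85), miR-148a-3p (-0.79) and miR-19b-3p (-0.31), where it was -0.81. miR-486a-5p turned to 0.013 with the percentile over all miRNAs and 3.94 in the deposited table, let-7b-5p to -0.10 with quantile normalization and -0.031 in that table. With 1 array left out, miR-19b-3p ran from -0.067 to 0.28 and let-7b-5p from -0.054 to 0.15, both lowest without sham replicate 1. The cause was not tested. Over all named miRNAs and alternatives, 756 of 1005 values kept direction and side of the threshold, 161 lost the call, 62 gained it and 26 turned. The dim sham arrays limit what can be read below -3.66.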
